A study of Homo sapiens with 6 samples.

Results

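The 9 genes described here in A2780 cells and their CDK12 KO clone are 8 of the complement system (C1R, C1S, C3, SERPING1, CFI, CD46, CD55 and CD59) and KCNT2, a potassium channel gene of chromosome 1. They were chosen by gene symbol from the 60483 genes of the count table, with earlier results of the same comparison known. Their KO and WT values are therefore given as a description, without p-values. Where they are counted as called, the calls come from the fit over all genes and are no independent test of them. A2780 is a human ovarian carcinoma line, and WT means the parental cells with an unedited CDK12, the gene of a kinase that acts on RNA polymerase II. The CDK12 KO cells carry CRISPR/Cas9 edits in exon 1 of both CDK12 alleles and are 1 clone, isolated by a further round of transfection of a heterozygous clone, so that the edit and the history of the clone cannot be told apart. The study also describes a duplicated DNA content in this clone, which WT cells lack. RNA was sequenced in 3 WT and 3 KO libraries, the labels name no drug treatment, and nothing in the labels says whether the libraries of a group came from separate cultures, so the p-values below measure the spread between these libraries only. Values after ± are the SD over the 3 libraries of a group, log2FC is the log2 fold change of KO over WT with its standard error (SE), and adjusted p-values are those of the edgeR quasi-likelihood test after Benjamini-Hochberg adjustment.

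Complement is a set of plasma and membrane proteins that marks cells and microbes for removal. C1R and C1S are the proteases of the C1 complex, which starts the classical pathway, and C3 is the central component, whose cleavage product is deposited on surfaces. Host cells limit this cascade. SERPING1 encodes the C1 inhibitor, which blocks C1R and C1S, and CFI encodes a plasma protease that inactivates C3b with the help of cofactors such as CD46. CD55 speeds the decay of the enzymes that cleave C3, and CD59 blocks the final membrane pore. CD46 spans the membrane, while CD55 and CD59 are held there by a glycosylphosphatidylinositol (GPI) anchor. The liver makes most plasma complement, but many other cells, tumor cells included, express some of these genes. KCNT2 encodes a sodium-activated channel of the SLO family and has no complement function.

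The promoters of 4 of the genes are shown first, those of KCNT2, which had no counts in KO cells, and of the membrane regulators CD46, CD55 and CD59. RefSeq promoter windows, from 250 bases before to 50 bases after a start site on GRCh38.p14, were at hand for 6 of the 9 genes, and where a gene had several starts the one at the start of the canonical GENCODE transcript was used. The KCNT2 window is chr1:196608391-196608690 on the minus strand, that of CD46 chr1:207751804-207752103 and that of CD55 chr1:207321428-207321727, both on the plus strand, and that of CD59 chr11:33736374-33736673 on the minus strand. Sequences run 5′ to 3′ along the gene, and capitals mark every match, on either strand, to one of 6 motifs: the GC box (letters GGGCGG), the CCAAT box, the TATA box (letters TATAAA), the STAT site (letters TTCNNNGAA), the interferon-response site and the AP-1 site (letters TGANTCA). No printed matches overlapped each other.
KCNT2: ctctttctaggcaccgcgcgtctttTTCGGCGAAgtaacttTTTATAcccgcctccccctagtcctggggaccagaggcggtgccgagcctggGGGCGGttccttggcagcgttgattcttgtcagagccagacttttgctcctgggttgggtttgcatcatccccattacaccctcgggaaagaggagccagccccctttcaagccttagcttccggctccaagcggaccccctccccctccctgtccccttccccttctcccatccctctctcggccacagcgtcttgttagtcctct
CD46: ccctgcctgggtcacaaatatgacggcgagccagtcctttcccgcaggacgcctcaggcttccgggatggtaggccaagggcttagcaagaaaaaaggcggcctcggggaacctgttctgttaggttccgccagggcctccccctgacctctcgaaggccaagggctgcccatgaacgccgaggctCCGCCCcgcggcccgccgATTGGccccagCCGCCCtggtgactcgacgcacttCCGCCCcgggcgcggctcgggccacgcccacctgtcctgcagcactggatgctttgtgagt
CD55: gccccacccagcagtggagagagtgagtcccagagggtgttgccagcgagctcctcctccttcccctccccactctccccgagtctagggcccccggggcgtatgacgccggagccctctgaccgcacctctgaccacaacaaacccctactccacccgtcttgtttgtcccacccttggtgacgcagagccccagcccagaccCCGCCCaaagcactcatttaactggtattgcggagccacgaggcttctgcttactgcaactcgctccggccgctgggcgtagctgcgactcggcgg
CD59: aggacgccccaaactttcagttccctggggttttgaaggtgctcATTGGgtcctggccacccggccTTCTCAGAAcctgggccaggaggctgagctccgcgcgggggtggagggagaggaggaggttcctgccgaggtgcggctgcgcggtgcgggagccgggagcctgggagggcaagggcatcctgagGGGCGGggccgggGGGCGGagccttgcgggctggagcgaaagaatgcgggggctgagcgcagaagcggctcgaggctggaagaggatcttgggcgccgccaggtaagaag
The GC box was present in all 4 printed windows. It occurred 3 times in that of CD46, 2 times in that of CD59 and once each in those of CD55 and KCNT2. The windows of CFI and C1R lacked it, and 45.0% of all 35116 promoter windows held it. A STAT site was found in the windows of CD59 and KCNT2, 184 and 225 bases before the start, against 7.66% of all windows, and a TATA box in that of KCNT2 alone, 209 bases before the start on the other strand, against 11.5%. CCAAT matches lay in the windows of CD46 and CD59 and in that of CFI, against 34.6% of all windows. The C1R window held none of the 6 motifs, and no window of the 6 genes held the interferon-response or AP-1 letters, which 3.57% and 7.71% of all windows hold. The number of CG dinucleotides was 25 for CD46, 22 for CD59, 19 for CD55, 15 for KCNT2, 10 for C1R and 2 for CFI, with a median of 14 over all windows. These matches are letters in a window and do not show that a factor is bound. Windows for C3, C1S and SERPING1 were not analysed here.

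Total counts per library ranged from 11098400 to 30899045, and 3 counts, the smallest level taken as detectable, corresponded to between 0.100 and 0.270 CPM (the count of a gene relative to the TMM-scaled total of its library), for counting error only. CDK12 itself had 2831, 3759 and 1294 counts in the WT libraries and 2432, 2504 and 1818 in the KO libraries. These were 115 ± 11.1 CPM in WT cells and 98.0 ± 4.64 CPM in KO cells, a log2FC of -0.23 (edgeR adjusted p = 0.00082). Every KO library was lower in CPM than every WT library. Whether a transcript carries the edit cannot be read from a gene count. Of 9 markers of ovarian carcinoma cells only KRT8, KRT18 and EPCAM had at least 10 counts in every library, while KRT19 had at most 11 counts and PAX8, WT1, MUC16, CDH1 and KRT7 at most 6. The summed level of those 9 markers was 68.5 to 74.0 CPM in WT cells and 115 to 119 CPM in KO cells, most of it KRT18, at 59.9 ± 1.96 and 103 ± 2.73 CPM. EPCAM went the other way, from 3.19 ± 0.794 to 2.17 ± 0.0446 CPM (edgeR adjusted p = 0.0119). Hepatocyte markers, which would accompany complement made by liver cells, summed to at most 0.854 CPM over 9 genes, and 6 of them, APOB and TTR included, had no count in any library. The 9 leukocyte markers summed to at most 1.15 CPM and the 5 endothelial markers to at most 0.929 CPM. Only 1 marker of each list had enough counts to be tested, CD14 (at most 26 counts) and VWF (at most 22 counts). Both were called higher in KO (adjusted p under 0.05 and log2FC above 1), where 8.30% of all tested genes were. Of 8 fibroblast markers 7 were tested and 5 of these were called lower (adjusted p under 0.05 and log2FC below -1), where 7.73% of all tested genes were. The sum of the 8 was 11113 to 11480 CPM in WT cells and 8544 to 8824 CPM in KO cells. Nearly all of it came from COL3A1, COL1A2 and COL1A1. COL3A1 was level, at 6006 ± 148 CPM in WT cells and 5960 ± 106 CPM in KO cells (edgeR adjusted p = 0.863). DCN and LUM were already sparse in WT, at 0.757 ± 0.0592 and 0.613 ± 0.103 CPM. Both were at 0 in KO, which is at least 4.49-fold lower for DCN and 3.63-fold lower for LUM. In bulk RNA, fewer cells with a transcript and less transcript per cell cannot be told apart, and the part of such cell states in the values below was not tested.

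Among the 9 genes, the largest difference between KO and WT cells was that of KCNT2, which had no counts in KO. C1S and C3 stood higher in KO cells and the inhibitor gene SERPING1 lower, each by less than 2-fold. The membrane regulators differed little, CD59 being modestly higher, CD46 nearly level, and CD55 with overlapping groups. CFI was close to the detection limit in both. Of the 9 genes, 8 passed the filter on low counts. By an adjusted p under 0.05 together with a log2 fold change above 1 or below -1, none of the 8 was called higher and KCNT2 alone was called lower, where 8.30% and 7.73% of the 16198 genes tested were called in these directions. By the adjusted p alone, 3 were higher (C1S, C3 and CD59) and 3 lower (KCNT2, SERPING1 and CD55), against 31.9% and 32.0% of all tested genes. The KO values lay entirely above the WT values for 4 genes and below them for 2, against 32.8% and 33.5% of all tested genes. The median log2FC was -0.01 over the 8 genes and 0.00 over all tested genes.

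**Figure D1:**
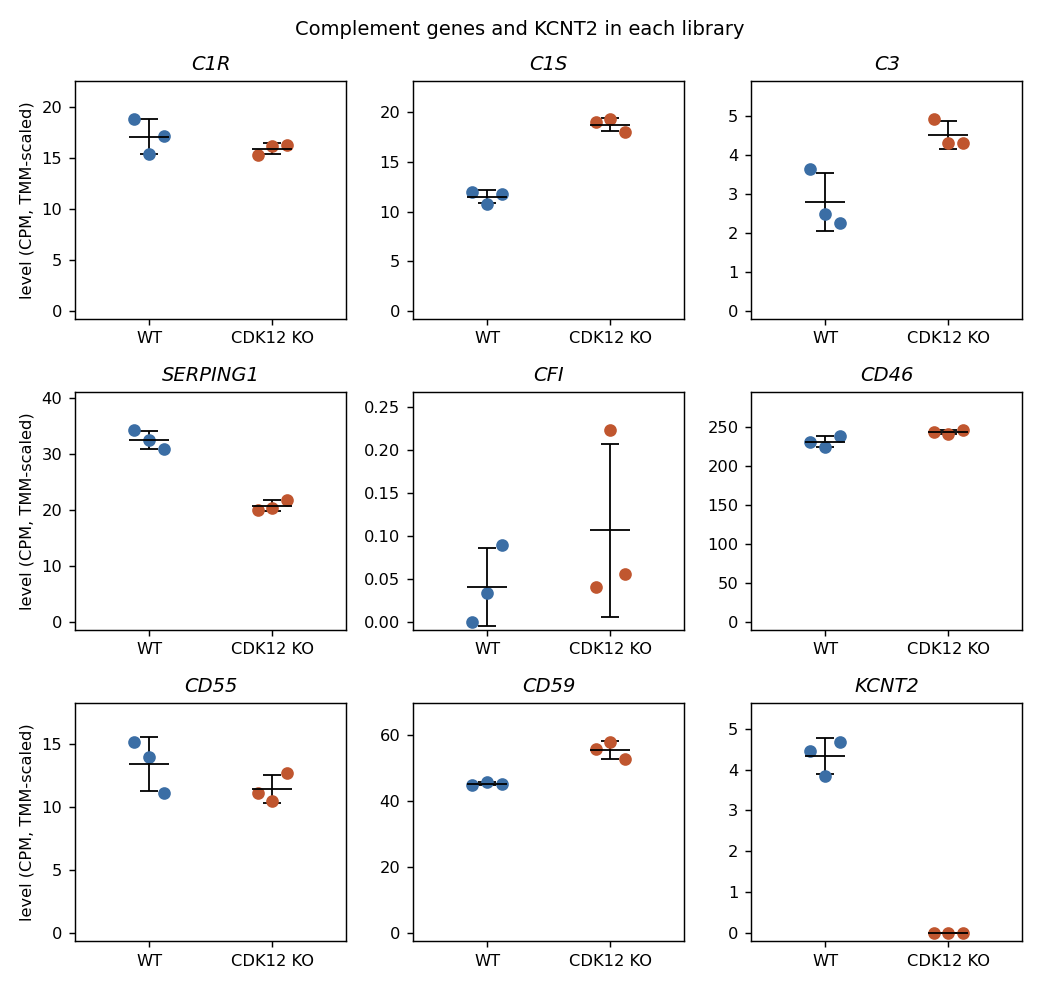
Level of each of the 9 genes in every library, in CPM on TMM-scaled totals (vertical axes differ between panels), with WT in blue and CDK12 KO in orange, the horizontal mark the mean and the bars the SD of 3 libraries. KCNT2 lay at 0 in the 3 KO libraries, C1S and C3 were higher and SERPING1 lower in every KO library than in any WT library, and the CD55 and C1R points of both groups overlapped.

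C1S (ENSG00000182326) lies on chromosome 12 (plus strand, 6988259 to 7071032). It had 11.9, 10.8 and 11.8 CPM in the WT libraries and 19.0, 19.3 and 18.0 CPM in the KO libraries. Every KO library was higher than every WT library, with 11.5 ± 0.630 CPM in WT cells and 18.8 ± 0.685 CPM in KO cells, a log2FC of 0.72 (SE 0.0814). C1R (ENSG00000159403), the partner protease that activates C1S, lies 9.18 kb further along the chromosome, on the minus strand from 7080214 to 7092540. Its level was 18.8, 15.4 and 17.2 CPM in WT cells and 15.3, 16.2 and 16.4 CPM in KO cells. The groups overlapped, with a log2FC of -0.10 (SE 0.0829) and an interval of 2 SE on either side from -0.27 to 0.06. Within a library, where scaling plays no part, the ratio of C1S to C1R counts was 0.634, 0.701 and 0.686 in WT and 1.24, 1.19 and 1.10 in KO, so that C1R gave more counts in every WT library and C1S in every KO library. C1R overlaps C1RL, a related protease gene on the same strand, over 2954 bases, and C1S overlaps LPCAT3 on the other strand. How reads in overlaps were assigned depends on the settings of HTSeq-Count, which are not given in the sources used here. C1RL had 27.7 ± 0.504 CPM in WT cells and 22.9 ± 2.06 CPM in KO cells, a log2FC of -0.28 (edgeR adjusted p = 0.00082), short of the fold threshold.

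C3 (ENSG00000125730), on the minus strand of chromosome 19 from 6677704 to 6730562, was sparsely expressed, with 100, 75 and 25 counts in the WT libraries and 121, 116 and 77 in the KO libraries. These correspond to 3.65, 2.50 and 2.25 CPM in WT cells and 4.92, 4.31 and 4.33 CPM in KO cells. The lowest KO library stood above the highest WT library, though the WT values were spread, with 2.80 ± 0.745 CPM against 4.52 ± 0.350 CPM. The log2 fold change was 0.64 with a standard error of 0.157, and it ranged from 0.49 to 0.89 when single libraries were left out or other methods were used. The first bases of C3 overlap GPR108 on the same strand over 649 bases; GPR108 had 40.2 ± 2.43 CPM in WT cells and 37.5 ± 1.76 CPM in KO cells, which overlapped.

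SERPING1 (ENSG00000149131), on chromosome 11 (plus strand, 57597387 to 57619171), had 34.2, 32.4 and 30.8 CPM in WT cells and 20.0, 20.3 and 21.9 CPM in KO cells. All KO libraries were lower than all WT libraries. The means were 32.5 ± 1.68 and 20.7 ± 0.985 CPM, a log2FC of -0.66 (SE 0.0676), or 63.3% of the WT level. As the C1 inhibitor faces C1S and C1R, the transcripts were also set against each other. There were 0.349, 0.333 and 0.383 C1S counts for each SERPING1 count in the WT libraries and 0.949, 0.949 and 0.823 in the KO libraries. For C1R this ratio was 0.551, 0.475 and 0.558 in WT and 0.764, 0.797 and 0.748 in KO. Both ratios were higher in every KO library than in any WT library, the first 2.55-fold and the second 1.46-fold on average.

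**Figure D2:**
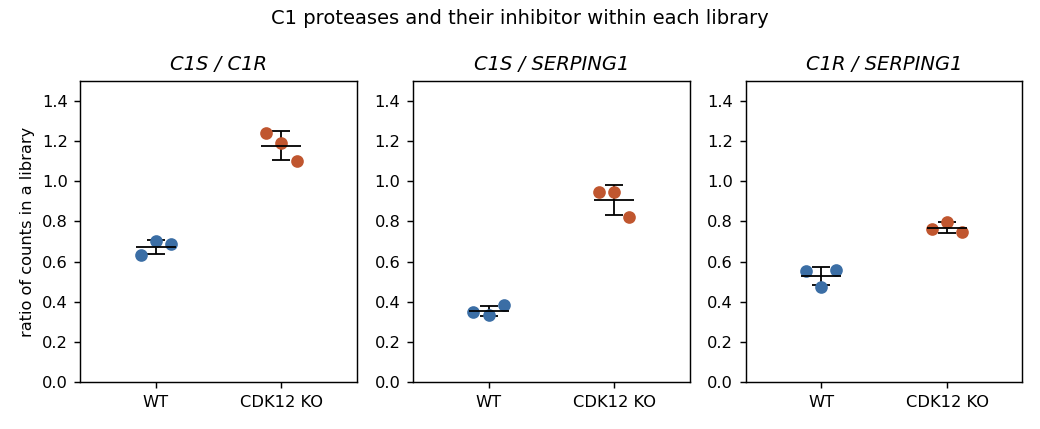
Ratio of counts of C1S to C1R, C1S to SERPING1 and C1R to SERPING1 within each library (points), with the mean and SD of 3 WT (blue) and 3 CDK12 KO (orange) libraries. All 3 ratios were higher in each KO library than in any WT library, and the C1S to C1R ratio lay below 1 in WT and above 1 in KO.

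CFI (ENSG00000205403), on chromosome 4 from 109731008 to 109802150, had 0, 1 and 1 counts in WT and 1, 6 and 1 in KO, and did not pass the filter. Only KO replicate 2 exceeded the 3 counts taken as the floor, and no difference was detectable at this depth. The genes on either side, PLA2G12A and GAR1, had 42.0 ± 0.844 and 48.2 ± 2.03 CPM in WT, and log2FC values of 0.16 and -0.18.

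CD46 (ENSG00000117335) was the most abundant of the genes. It lies on chromosome 1 from 207752037 to 207795513 and had 231, 225 and 239 CPM in WT cells and 244, 242 and 246 CPM in KO cells. The groups did not overlap, but the means of 232 ± 7.09 and 244 ± 2.24 CPM stood close, with a log2FC of 0.08 (SE 0.0462) and an interval of 2 SE on either side from -0.02 to 0.17. CD55 (ENSG00000196352), 365 kb away on the same strand from 207321519 to 207386804, had 15.2, 14.0 and 11.1 CPM in WT cells and 11.1, 10.5 and 12.7 CPM in KO cells. WT replicate 3 fell among the KO libraries. The log2 fold change was -0.29 with a standard error of 0.0978, and from -0.37 to -0.20 over the libraries left out and the other methods. CD59 (ENSG00000085063), on the minus strand of chromosome 11 from 33703010 to 33736479, had 44.9, 45.8 and 45.3 CPM in WT cells and 55.8, 58.1 and 52.8 CPM in KO cells. Each KO library was above each WT library, with a log2FC of 0.30 (SE 0.0561), or 123% of the WT level. The ratio of CD59 to CD55 counts was 2.96, 3.28 and 4.09 in WT and 5.02, 5.55 and 4.15 in KO, with the third library of each group almost meeting the other group.

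KCNT2 (ENSG00000162687), on the minus strand of chromosome 1 from 196225779 to 196609225, had 122, 115 and 52 counts in the WT libraries, or 4.45, 3.84 and 4.68 CPM. It had 0 counts in each of the 3 KO libraries, where 3 counts would be between 0.111 and 0.169 CPM. Set against the highest of these floors, the level in KO was at least 25.7-fold lower than the 4.32 ± 0.436 CPM of WT. The tested genes compared on both sides, neither of them close to KCNT2, were present in KO cells. Nearer genes are not reported here, so these values do not describe the direct surroundings of KCNT2. CDC73, 2971 kb below, had 101 ± 5.73 CPM in WT cells and 104 ± 5.37 CPM in KO cells (log2FC 0.03). ASPM, 475 kb above, had 196 ± 12.3 and 155 ± 12.8 CPM, a log2FC of -0.34 (edgeR adjusted p = 3.31e-06). Gene copy number was not measured, and whether the gene is present in the clone was not tested. Of its relatives of the SLO family only KCNMA1 was tested, with 2.14 ± 0.285 CPM in WT cells and 1.48 ± 0.516 CPM in KO cells, overlapping groups with a log2FC of -0.55 (edgeR adjusted p = 0.0275). KCNT1 had at most 5 counts in a library and KCNU1 none. The patterns most like that of KCNT2, by Euclidean distance of centred log2 CPM over the 6 libraries among 14527 genes with at least 100 counts in all, were those of LOXL4 (0.158), IQGAP2 (0.194), CD36 (0.236), SOCS2 (0.249) and YBX3 (0.313). LOXL4 was counted 118, 120 and 58 times in WT and 0 times in each KO library. IQGAP2 was far more abundant, at 103 to 106 CPM in WT cells and 1.97 to 2.08 CPM in KO cells. In this measure 2 counts were added before taking logs, which limits the fold of a gene at 0.

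Levels of different genes were compared per exon length, as RPKM (CPM per kilobase of annotated exon). In WT cells CD46 was highest, at 14.9 ± 0.458 RPKM, followed by SERPING1 at 4.49 ± 0.233 and CD59 at 4.30 ± 0.0429 RPKM, whose libraries overlapped. C1R came next at 2.95 ± 0.297 RPKM, then C1S at 1.39 ± 0.0759 and CD55 at 1.31 ± 0.206 RPKM, which also overlapped. KCNT2 had 0.601 ± 0.0607, C3 0.242 ± 0.0644 and CFI 0.00773 ± 0.00856 RPKM. In KO cells the order was CD46 (15.7 ± 0.145 RPKM), CD59 (5.26 ± 0.254), SERPING1 (2.87 ± 0.136), C1R (2.75 ± 0.0976), C1S (2.26 ± 0.0826), CD55 (1.11 ± 0.112), C3 (0.390 ± 0.0303), CFI and KCNT2, with SERPING1 and C1R overlapping. CD46 thus stood more than 2-fold above every other gene in both groups, and SERPING1 was above C1R within every library of both groups, although their ranges over the KO libraries overlapped. Exon lengths are those of all annotated transcripts joined, which understates the level of genes with many long minor exons.

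**Figure D3:**
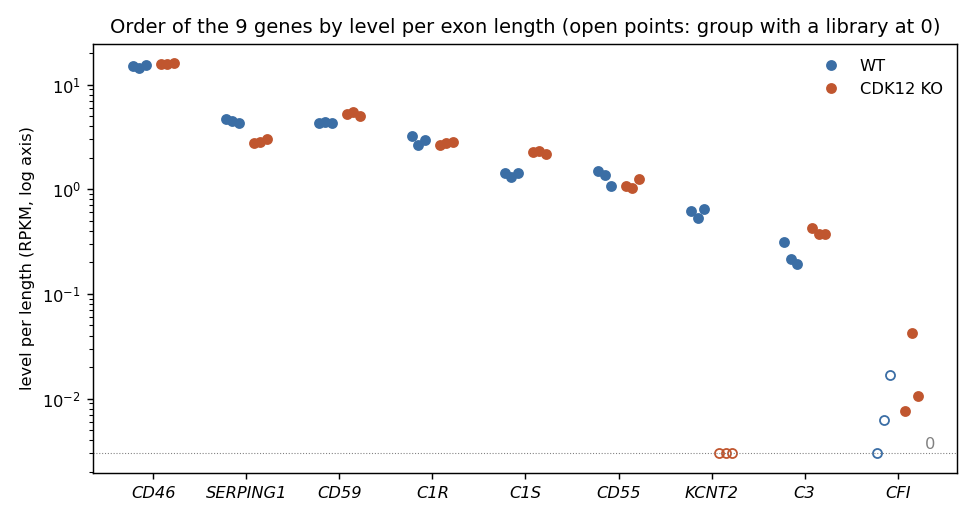
Level per exon length of the 9 genes in each library (RPKM, log axis), ordered by the WT mean, with WT in blue and CDK12 KO in orange; points at 0 are drawn on the dotted line. CD46 led in both groups, KCNT2 lay at 0 in KO, and SERPING1 moved from above CD59 in WT means to below it in KO.

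Beyond these genes, 47 other complement genes were examined, of which 15 were tested and 18 had no count in any library. The 18 include the C1q chains C1QA, C1QB and C1QC that C1R and C1S bind, the terminal components C6, C8A, C8B and C9, and the regulators and receptor C4BPA, C4BPB and CR2, encoded near CD55 on chromosome 1. Past both thresholds 3 of the 15 rose and 4 fell, where 8.30% and 7.73% of all tested genes did. By the adjusted p alone 5 rose and 5 fell, close to the 31.9% and 32.0% of all tested genes. Their median log2FC was 0.00, as for all tested genes. The largest decrease with ample counts was that of CLU, the gene of clusterin, which binds the terminal complex in fluid. It had 37.0, 36.9 and 42.8 CPM in WT cells and 10.3, 11.6 and 10.6 CPM in KO cells, a log2FC of -1.82 (SE 0.0772, edgeR adjusted p = 6.47e-20). MBL2, which encodes the mannose-binding lectin that opens the lectin pathway, fell from 3.87 ± 0.160 to 1.65 ± 0.133 CPM, a log2FC of -1.26 (edgeR adjusted p = 6.1e-08). VTN, the gene of vitronectin, another inhibitor of the terminal complex, had 10 to 32 counts in WT and 2 to 9 in KO, a log2FC of -1.84 (edgeR adjusted p = 2.59e-05). CSMD3 had 17, 13 and 7 counts in WT and none in KO, at least 3.33-fold lower. The 3 genes that rose were weakly expressed. MASP2, the protease of the lectin pathway, had 2 to 5 counts in WT and 10 to 13 in KO (log2FC 1.58, edgeR adjusted p = 0.00217). C8G, a chain of the terminal component C8, had 1 to 7 and 11 to 16 counts (log2FC 1.88, edgeR adjusted p = 0.000328), and CSMD2 had 5 to 6 and 20 to 40 counts (log2FC 2.47, edgeR adjusted p = 1.4e-07). Both chains of C8 that C8G joins, C8A and C8B, were at 0 in all libraries. C5, whose cleavage starts the terminal pathway, rose below the fold threshold, from 12.7 ± 0.775 to 17.4 ± 1.51 CPM (log2FC 0.46, edgeR adjusted p = 1.82e-05), as did CFP, the gene of properdin (log2FC 0.69, edgeR adjusted p = 0.00166); C5 and CFP were named after their values were seen.

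**Figure D4:**
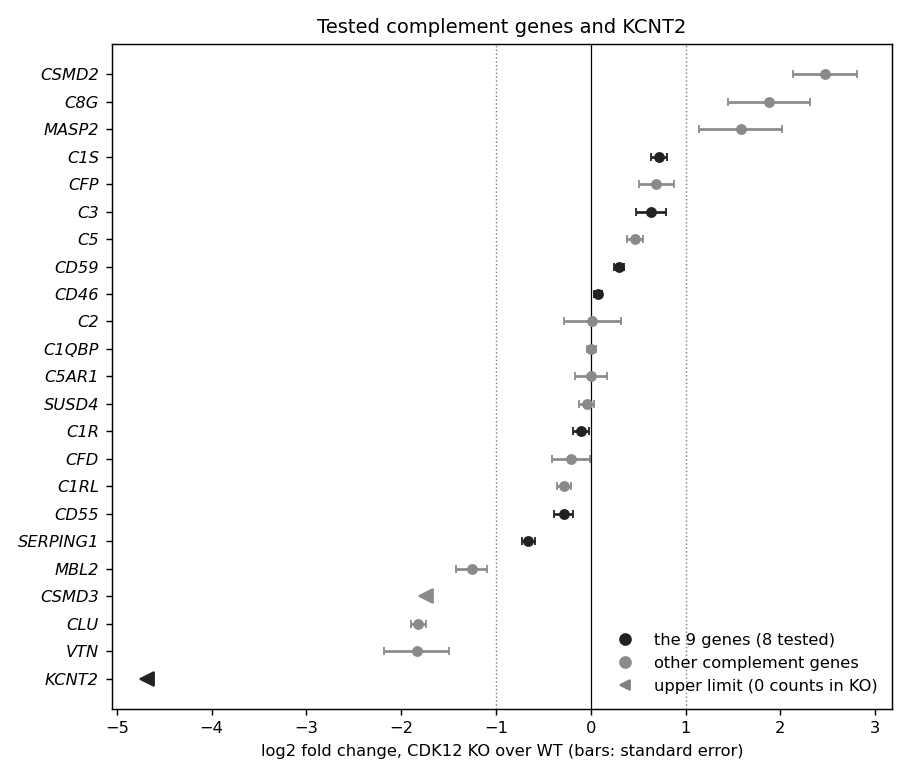
Log2 fold change of CDK12 KO over WT with its standard error for the 8 tested genes (black) and the 15 tested other complement genes (grey); dotted lines mark the fold threshold of the study and arrowheads the limits of genes with 0 counts in KO. KCNT2 and CSMD3 are drawn at their limits, C1S, C3 and SERPING1 lie inside the threshold, and CLU, VTN and MBL2 lie beyond it on the lower side.

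CD55 and CD59 reach the membrane only with a GPI anchor, and 27 of 28 genes that build or attach it were tested. PIGC, a subunit of the enzyme of the first step, was the only one called. It rose from 87.8 ± 2.36 to 194 ± 4.50 CPM, a log2FC of 1.14 (SE 0.0486, edgeR adjusted p = 8.11e-20). Past both thresholds 1 of the 27 was thus called higher and none lower, against 8.30% and 7.73% of all tested genes. By the adjusted p alone 10 rose and 8 fell, near the shares of 31.9% and 32.0% over all tested genes, with a median log2FC of 0.04.

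Cytokines of the interleukin-6 and interferon families act on C1R, C1S, C3 and SERPING1 in many cells. Of a list of 27 cytokine signalling genes, 26 were tested. Beside genes of these families the list held other receptors and mediators, among them IL1R1, TNFRSF1A, NFKB1, NFKB2, RELA and RELB. Past both thresholds SOCS3, a feedback inhibitor of the interleukin-6 receptor, was called lower and none higher, against 7.73% and 8.30% of all tested genes. It had 31.2, 30.2 and 33.1 CPM in WT cells and 0.977, 0.929 and 0.337 CPM in KO cells, a log2FC of -5.30 (SE 0.138, edgeR adjusted p = 8.16e-26). By the adjusted p alone 11 rose and 5 fell, against 31.9% and 32.0% of all tested genes. The largest of these increases, named after the values were seen, were those of IL6ST, the shared receptor subunit, with 135 ± 8.31 CPM in WT cells and 247 ± 16.4 CPM in KO cells (log2FC 0.87), of CEBPB (0.63) and of STAT3 (0.59). The median of the 26 genes was 0.05.

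Tested genes on either side of the 9 genes on their chromosomes were compared as well. Genes not reported here were passed over, so a neighbour need not be the nearest tested gene. Of 14 neighbours that are not themselves among the 9, none was called higher and 2 were called lower, CD70 below C3 and KIAA1549L below CD59, where 8.30% and 7.73% of all tested genes were called. CD70 had 3.55 ± 0.440 CPM in WT cells and 1.40 ± 0.160 CPM in KO cells (log2FC -1.29, edgeR adjusted p = 1.88e-07), on the opposite side of 0 from C3. KIAA1549L had 5.11 ± 0.891 and 1.58 ± 0.0451 CPM (log2FC -1.66, edgeR adjusted p = 3.73e-10), likewise opposite to CD59. YOD1, below CD55, and MIR29B2CHG, which overlaps CD46 on the other strand, had log2FC values of -0.08 and -0.14 (edgeR adjusted p = 0.261 and 0.613). Around SERPING1, RPS4XP13 and MIR130AHG had log2FC values of 0.55 and -0.30 (edgeR adjusted p = 0.141 and 0.133).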

How the data were processed

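RNA of A2780 WT and CDK12 KO cells (3 libraries each) was sequenced as stranded single-end 75 bp reads. The authors deposited raw counts per gene, made per the paper's methods with FastQC, STAR on GRCh38 and HTSeq-Count. Versions, annotation release, strand setting and treatment of multimapping reads are not given in the sources used here. Groups were taken from the genotype of each library, and the labels pair no libraries and name no batch.

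Identifiers were matched without version to GENCODE release 44 (56321 of 60483 genes). Low genes were removed by filterByExpr of edgeR 4.0.16 (R 4.3.3; minimum count 10, minimum total 15), libraries were scaled by TMM, and 16198 genes were tested with the quasi-likelihood test, two-sided, with Benjamini-Hochberg adjustment. Genes were called at the thresholds of the paper, which are 0.05 for the adjusted p and, for the log2 fold change, 1 upward and -1 downward. CPM uses TMM-scaled totals, and RPKM divides it by joined exon length. The SE was derived from the test, as the absolute log2 fold change divided by the square root of the F statistic. A fold against a group at 0 counts uses the highest floor of 3 counts per library. Alternatives were voom/limma 3.58.1, DESeq2 1.42.0, other scalings and filters, the adjusted p alone and each library left out. The tests were checked on simulated counts of well-counted genes only, so the check does not cover genes with few or no counts. Figures were drawn in Python 3.11.15 with matplotlib 3.10.9.

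The 9 genes and all lists were chosen with earlier results of these data known. Named are the 9 genes, CDK12, other complement genes past both thresholds, and up to 3 genes per direction past both in each further pathway list. Also named are the nearest tested gene on each side among those reported here, the 5 patterns most like KCNT2, and detected cell type markers. Some genes are not reported here. Motif searches used RefSeq promoter windows.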

Additional observations from a re-analysis of the deposited data

How the results depend on the processing

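The tested genes of the 9 were followed over voom/limma, DESeq2, median-of-ratios and upper-quartile scaling, both other filters and each library left out. Of 92 values, 91 moved by less than the spread between libraries, and no log2 fold change changed sign. For KCNT2 only the limit was followed, under the other scalings and with each library left out, and a limit cannot change sign. The limit for KCNT2 moved from 25.7-fold to 35.4-fold without KO replicate 3, whose smaller total sets the highest floor. KCNT2 was not tested where 10 counts were required in every library. Without single libraries its limit ranged from 24.6-fold to 35.4-fold. C1S ranged from 0.66 to 0.75 and SERPING1 from -0.69 to -0.63 in log2 fold change over the same alternatives, while C1R ranged from -0.20 to -0.01 and CD46 from 0.05 to 0.10.

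With at least 10 counts required in every library, 568 genes were called up and 684 down instead of 1345 and 1252, and the other complement genes called were 0 up and 2 down instead of 3 and 4. SOCS3 was not tested under this filter, which left 0 cytokine signalling genes called down. Without a filter 5 other complement genes were called up. By the adjusted p alone, 5165 genes were called up and 5188 down, 5 other complement genes up, 10 GPI anchor genes up and 8 down, and 11 cytokine signalling genes up and 5 down. Fewer or more genes enter these counts by construction. No paired analysis was possible because no label links a WT library to any KO library. Depth limits genes with few counts, such as CFI, C3, MASP2, C8G, VTN, CSMD2 and CSMD3, each with 25 or fewer counts in WT replicate 3.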
